A study of Mus musculus with 8 samples.

Results

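Galectins are lectins, proteins that bind β-galactoside sugars on glycoproteins and glycolipids, and 6 genes of this group were followed here through 2 pancreatic tumors of the KPC mouse. They are the rows Lgals1, Lgals2, Lgals3, Lgals4, Lgals9 and Lgals3bp, 6 of the 27775 gene rows in the count table of each tumor, and they were picked by symbol with earlier values of these data in view. Their levels in the cell groups are therefore given as a description. The alleles of KPC mice include LSL-Trp53 R172H/+ and Pdx-1-Cre, so that Cre, driven by the Pdx-1 promoter of the pancreatic lineage, switches on mutant Trp53 in those cells. Both mice were untreated controls of this genotype, and no mouse without it was analysed. The tumors, pancreatic ductal adenocarcinomas, were called medium size and large size, with 1 tumor of each. They were dissociated with a mouse tumor kit and captured with the 10x Genomics Chromium 3′ v2 chemistry.

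Galectins are made in the cytosol without a signal peptide and leave the cell by an unconventional route. Lgals1 and Lgals2 encode prototype galectins with a single sugar-binding domain that can pair. Lgals3 encodes the chimera type, with a collagen-like tail through which it forms larger assemblies. Lgals4 and Lgals9 encode tandem-repeat galectins with a pair of different sugar-binding domains on 1 chain. Lgals3bp is not a galectin but a secreted glycoprotein that galectins, Lgals3 among them, bind. In the pancreas and gut Lgals4 and Lgals2 are known as epithelial genes, Lgals3 as a gene of macrophages and epithelium, and Lgals1 as a gene of fibroblasts and other mesenchymal cells.

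In the GENCODE M21 annotation of GRCm38, Lgals1 lies at chr15:78926725-78930465 on the plus strand and Lgals2 at chr15:78850860-78855529 on the minus strand, where it overlaps Cdc42ep1 of the other strand. Lgals4 lies at chr7:28833854-28841708 on the plus strand, Lgals3 at chr14:47367751-47386160 on the plus strand, Lgals9 at chr11:78962974-78984946 on the minus strand and Lgals3bp at chr11:118392751-118402092 on the minus strand. Lgals6, a close copy of Lgals4 that some mouse strains carry, has no row in the tables, so reads of such a copy cannot be told apart from those of Lgals4.

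The promoters of Lgals2 and Lgals4 are shown because their levels were the most similar among the pairs of members over all cell groups of the medium-size tumor. Over its epithelial-like groups alone another pair was closer, as given further on. The RefSeq table for GRCm38.p6 had a promoter window, 250 bases before to 50 after the start, for 5 of the 6 members, with Lgals1 not among them. Capitals mark a CAAAGTCC match (a site of HNF4, a liver and gut factor) and a TTTATGG match (CDX, a gut factor), searched on both strands. The windows are chr15:78855480-78855779 on the minus strand for Lgals2 and chr7:28833544-28833843 on the plus strand for Lgals4.
Lgals2: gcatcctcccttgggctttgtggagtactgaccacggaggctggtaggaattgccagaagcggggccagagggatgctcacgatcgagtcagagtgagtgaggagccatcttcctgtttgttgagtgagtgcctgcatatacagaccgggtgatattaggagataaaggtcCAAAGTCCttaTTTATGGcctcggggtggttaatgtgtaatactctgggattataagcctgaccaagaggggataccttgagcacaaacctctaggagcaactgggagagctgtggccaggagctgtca
Lgals4: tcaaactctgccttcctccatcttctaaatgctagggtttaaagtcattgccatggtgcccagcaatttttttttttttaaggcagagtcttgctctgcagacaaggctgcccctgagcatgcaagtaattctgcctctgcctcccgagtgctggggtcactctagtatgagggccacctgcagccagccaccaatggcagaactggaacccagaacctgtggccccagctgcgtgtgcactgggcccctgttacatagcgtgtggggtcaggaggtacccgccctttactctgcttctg
The Lgals2 window holds both matches, which do not overlap each other, and the Lgals4 window holds neither. Of all 32851 windows of this length, 1.42% hold CAAAGTCC and 2.75% hold TTTATGG. The string GTTAATNA of the factor HNF1 is in 2.54% of the windows and in none of the members' windows. The interferon-stimulated response element is in 3.44%, and among the members in the window of Lgals9. The strings were chosen after the sequences had been seen, and a match says only that the letters are there.

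The medium-size tumor has 2812 cells with a median of 5456.5 UMIs (unique molecular identifiers, each a captured mRNA molecule), and the large-size tumor 1533 cells with a median of 1037 UMIs. The tables share 5 cell barcodes. Each table pools 4 technical replicates that its barcodes do not tell apart, so each tumor is 1 sample and no test was made. Levels are CPM, counts per 1000000 UMIs summed over a group of cells, with exact 95% Poisson intervals. Shares of cells and ratios carry exact 95% binomial intervals, and all intervals cover counting error only. The 3′ chemistry counts a transcript once whatever its length, so levels of different genes were set side by side without a length correction.

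Clusters were made in each tumor without any gene whose symbol starts with Lgals, and were named from marker lists. In the medium-size tumor 8 clusters were epithelial-like (2326 cells), 2 monocyte/macrophage-like (239 cells), and 1 each stromal-like (67 cells), mesothelial-like (74 cells) and endothelial-like (38 cells). A further cluster of 68 cells with 10 of 11 epithelial and 8 of 11 macrophage markers stayed unnamed. In the large-size tumor 7 clusters were epithelial-like (1218 cells), and 1 each monocyte/macrophage-like (254 cells), stromal-like (50 cells) and endothelial-like (11 cells). Whether epithelial-like cells were carcinoma cells was not tested, since no mutation was called in single cells here. Among them, gastric pit-like (Gkn1, Gkn2, Gkn3) and cycling clusters occurred in both tumors. The other epithelial-like clusters of the medium-size tumor are called here by leading genes, Dmbt1/Sftpd, Reg1/Ly6k, Hmga2/Cldn6, Yap1/Birc2, Krt17/Tnc and Inhba/Bmp2. Those of the large-size tumor are the enterocyte-like (Fabp1, Fabp2), goblet-like (Muc2, Tff3), Onecut2, Upk3a/Sprr2f and Ggct/Ramp1 clusters. The 214 enterocyte-like and 154 goblet-like cells carry genes of the gut lining, and carcinoma cells and cells of adjacent gut cannot be told apart in them, so the ratios of Lgals2 and Lgals4 that they moved most are given without them as well. The Inhba/Bmp2 and Ggct/Ramp1 clusters had 3 of 11 epithelial markers, with 6 and 5 of 10 genes of the mesenchymal list, and are the mesenchymal-marker clusters below.

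Lgals1 and Lgals4 were the most abundant members in the medium-size tumor, at 2034 CPM (2015 to 2054) and 2014 CPM (1994 to 2033) over all cells. Lgals3 followed at 1354 CPM, and Lgals2, Lgals3bp and Lgals9 lay at 215, 208 and 91.0 CPM. The large-size tumor had Lgals1 at 930 CPM (891 to 971), Lgals4 at 784 CPM, Lgals3 at 720 CPM, Lgals2 at 156 CPM, Lgals3bp at 82.6 CPM and Lgals9 at 19.2 CPM. The ranking of the 6 genes was the same in both tumors, with the intervals of Lgals1 and Lgals4, and of Lgals2 and Lgals3bp, overlapping in the medium-size tumor and those of Lgals4 and Lgals3 in the large-size tumor. Most molecules of every member came from epithelial-like cells, from 84.2% for Lgals1 to 97.8% for Lgals2 in the medium-size tumor. Those cells were also 82.7% of its cells and had the highest median depth of the classes. In them Lgals1 stood below its level over all cells (1924 against 2034 CPM), and Lgals3 was no higher (1341 against 1354 CPM). The levels of the other members were above those over all cells.

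**Figure D1:**
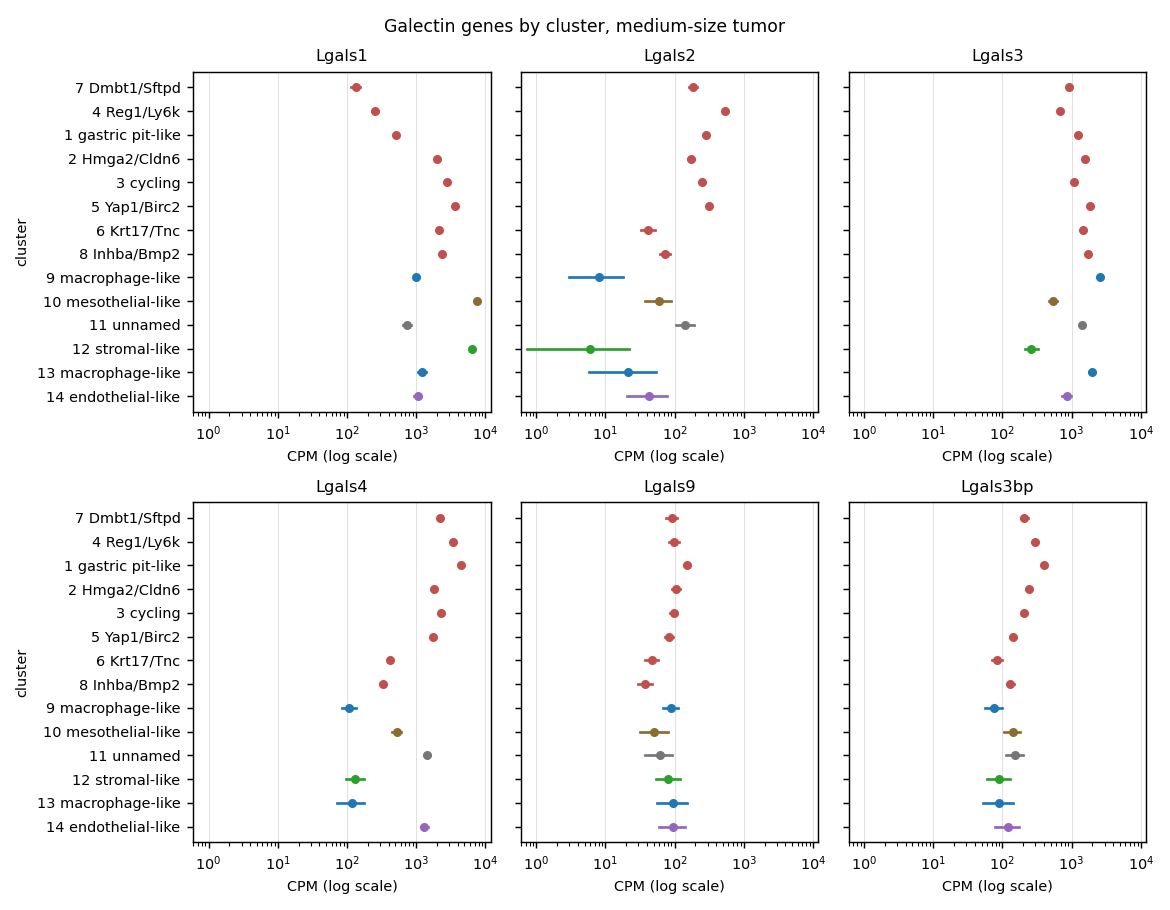
CPM of each member (x axis, log scale) in the 14 clusters of the medium-size tumor (y axis), as points with exact 95% Poisson intervals, coloured by class (red epithelial-like, blue monocyte/macrophage-like, green stromal-like, brown mesothelial-like, purple endothelial-like, grey unnamed). Lgals1 runs from 134 CPM in the Dmbt1/Sftpd cluster to 7466 CPM in the mesothelial-like cluster, while Lgals9 stays between 37.5 and 150 CPM.

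**Figure D2:**
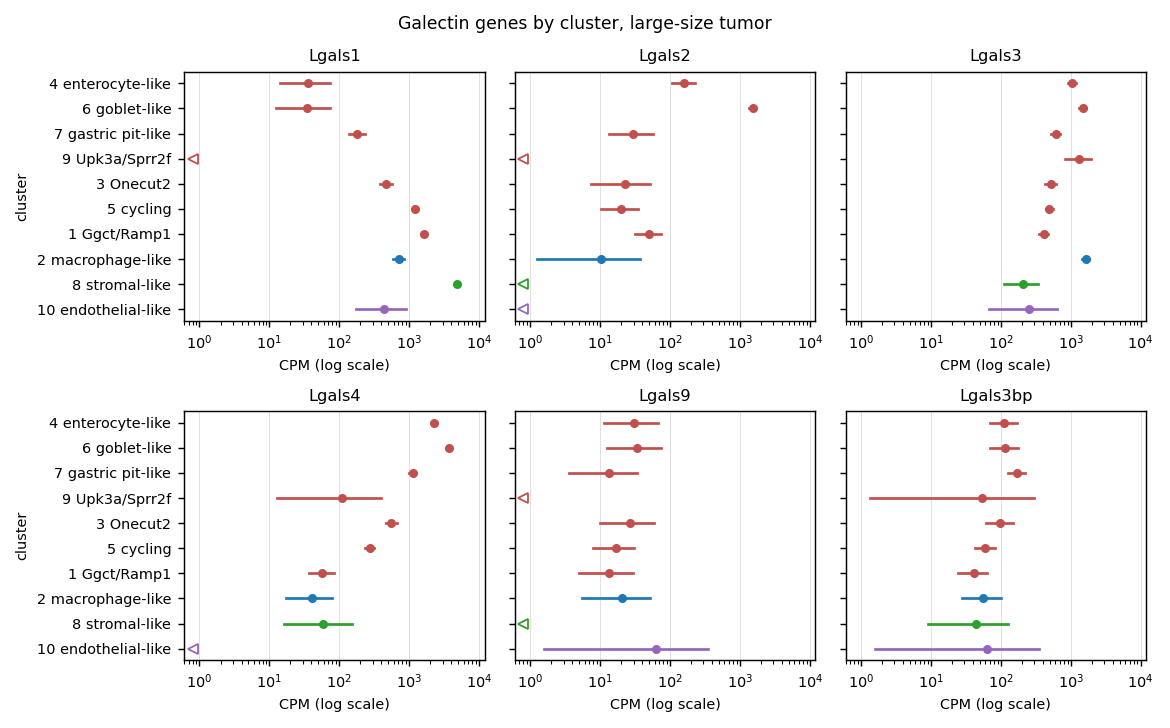
The same for the 10 clusters of the large-size tumor, with CPM on a log x axis and open triangles for clusters with 0 UMIs. Lgals2 stands at 1528 CPM in the goblet-like cluster and at or below 158 CPM in every other cluster.

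Lgals1, the prototype galectin of mesenchymal cells, had a span of 55.6 times from the lowest to the highest cluster of the medium-size tumor, the widest of the 5 members with more than 3 UMIs in every cluster. The mesothelial-like cluster (7466 CPM, 7198 to 7742) and the stromal-like cluster (6395 CPM, 6126 to 6673) were highest. The mesothelial-like cluster, named from 6 of 6 mesothelial markers (2038 CPM), also had 6 of 10 stromal markers at 13011 CPM, against 15369 CPM in the stromal-like cluster, and by each cell's own markers 41 cells of the tumor were mesothelial. The Yap1/Birc2 cluster (3693 CPM), the cycling cluster (2776 CPM), the Inhba/Bmp2 cluster (2380 CPM), the Krt17/Tnc cluster (2141 CPM) and the Hmga2/Cldn6 cluster (1994 CPM) came next. These 5 epithelial-like clusters thus stood above both macrophage-like clusters, which had 1234 and 1008 CPM. The endothelial-like cluster had 1054 CPM and the unnamed cluster 746 CPM. The gastric pit-like (507 CPM), Reg1/Ly6k (251 CPM) and Dmbt1/Sftpd (134 CPM, 116 to 155) clusters were lowest. Of the 13 neighbouring pairs in this order, 2 had overlapping intervals, both among the macrophage-like and endothelial-like clusters.

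Lgals1 in the large-size tumor was again highest in the stromal-like cluster (4857 CPM, 4348 to 5410). The Ggct/Ramp1 cluster followed with 1607 CPM, the cycling cluster with 1209 CPM, the macrophage-like cluster with 706 CPM, the Onecut2 cluster with 463 CPM and the endothelial-like cluster with 438 CPM (176 to 903). The gastric pit-like cluster had 182 CPM. Enterocyte-like and goblet-like cells had little Lgals1, at 35.7 CPM (14.3 to 73.5) from 7 UMIs and 34.1 CPM (12.5 to 74.2) from 6 UMIs. The 17 cells of the Upk3a/Sprr2f cluster had 0 UMIs of Lgals1, which at 3 counts allows up to 162 CPM.

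Lgals4, the tandem-repeat galectin of gut-type epithelium, took a different order. In the medium-size tumor it was highest in the gastric pit-like cluster (4471 CPM, 4393 to 4550) and the Reg1/Ly6k cluster (3439 CPM). The cycling cluster had 2268 CPM, the Dmbt1/Sftpd cluster 2247 CPM, the Hmga2/Cldn6 cluster 1817 CPM and the Yap1/Birc2 cluster 1774 CPM. The Krt17/Tnc (420 CPM) and Inhba/Bmp2 (330 CPM, 304 to 357) clusters were the lowest of the epithelial-like clusters, below the unnamed (1454 CPM), endothelial-like (1318 CPM) and mesothelial-like (524 CPM) clusters. Low Lgals4 was thus found both in a cluster with 10 of 11 epithelial markers, the Krt17/Tnc cluster, and in one with 3 of 11. Of 13 neighbouring pairs, 5 had overlapping intervals.

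Of the clusters of the large-size tumor, the goblet-like (3658 CPM, 3381 to 3951) and enterocyte-like (2272 CPM, 2066 to 2493) clusters led, followed by the gastric pit-like (1124 CPM), Onecut2 (552 CPM) and cycling (273 CPM) clusters. The Ggct/Ramp1 cluster had 56.6 CPM (36.6 to 83.5). Goblet-like and enterocyte-like cells held 36.7% and 25.4% of all Lgals4 molecules of that tumor.

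Lgals4 UMIs also appeared in the other classes. In the medium-size tumor 28.9% of macrophage-like cells (23.2% to 35.1%) had at least 1 Lgals4 UMI at a median depth of 3511 UMIs, against 85.8% of epithelial-like cells at 5986 UMIs. The shares in the large-size tumor were 3.15% at a median of 688.5 UMIs and 45.7% at 1175.5 UMIs. Lgals4 UMIs per UMI of the 11 epithelial markers came to 0.165 in macrophage-like and 0.190 in epithelial-like cells in the medium-size tumor, and to 0.167 and 0.199 in the large-size tumor. The epithelial markers themselves summed to 661 CPM in macrophage-like and 11536 CPM in epithelial-like cells in the medium-size tumor, with all 11 seen in both. In the large-size tumor they summed to 244 and 4469 CPM, with Krt7, Cldn3 and Muc1 at 0 in the macrophage-like cells. The ratio was 0.182 in mesothelial-like, 0.104 in stromal-like and 0.323 in endothelial-like cells in the medium-size tumor. The endothelial-like ratio thus lay above that of the epithelial-like cells and the others below it. No expression is read from the Lgals4 UMIs outside the epithelial-like cells, and the part of free RNA or of doublets in them was not tested.

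**Figure D3:**
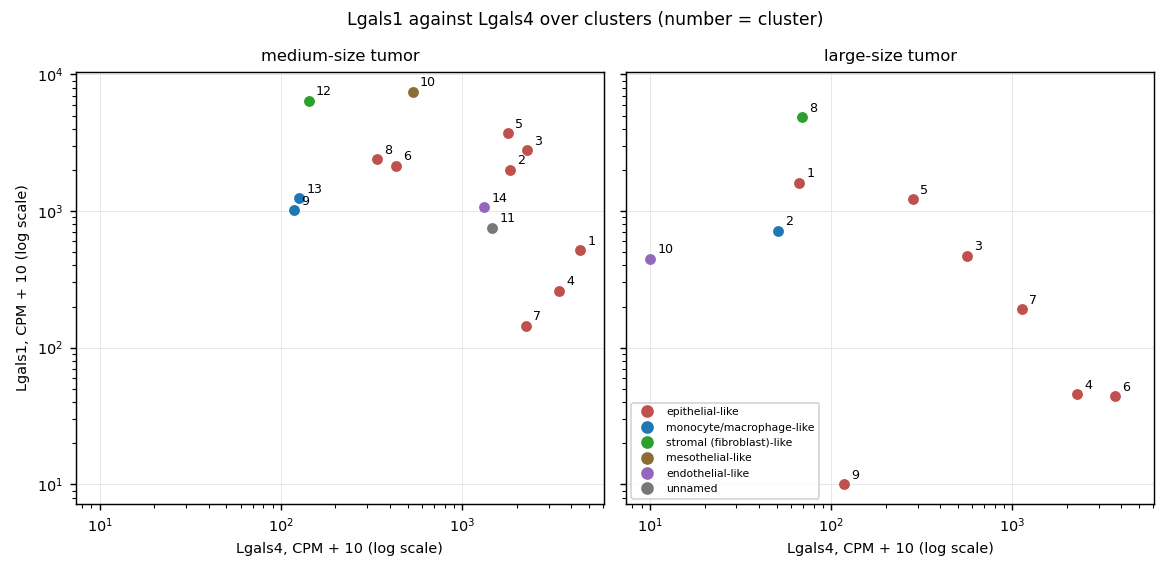
Lgals1 (y axis) against Lgals4 (x axis), both as CPM with 10 added on log axes, for the clusters of each tumor, with the cluster number beside each point and colour for class. In the large-size tumor the epithelial-like clusters with over 50 cells run from the Ggct/Ramp1 cluster (cluster 1), high in Lgals1, to the goblet-like cluster (cluster 6), high in Lgals4, while clusters 2, 3 and 5 of the medium-size tumor are high in both.

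Across clusters Lgals1 and Lgals4 thus went in opposite directions, though not fully. Pearson's r of log2(CPM + 10) was −0.46 over the 14 clusters of the medium-size tumor and −0.90 over the 8 clusters of the large-size tumor with at least 50 cells. Over epithelial-like clusters alone it was −0.52 (n = 8) and −0.95 (n = 6). These points share a library and its depth, and cells of 1 tumor are not replicates.

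The same contrast was seen cell by cell after each cell of the medium-size tumor had been thinned to 2500 UMIs. Lgals1 had more UMIs than Lgals4 in 3.25% of gastric pit-like, 4.50% of Reg1/Ly6k and 2.12% of Dmbt1/Sftpd cells, and in 87.2% of Inhba/Bmp2 and 81.0% of Krt17/Tnc cells. Between these ends, Lgals1 led in 63.0% of Yap1/Birc2, 48.6% of Hmga2/Cldn6 and 48.3% of cycling cells. Both genes had a UMI in 71.7%, 63.2% and 72.3% of the cells of these 3 clusters, so co-detection under 1 barcode was common in them. In the large-size tumor, thinned to 500 UMIs, Lgals1 led in 51.3% and Lgals4 in 1.85% of Ggct/Ramp1 cells, and Lgals1 led in 0.649% and Lgals4 in 78.6% of goblet-like cells. At this depth 47.3% of its epithelial-like cells had neither gene.

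Lgals2, a prototype galectin of gut epithelium, was lower in the macrophage-like and stromal-like clusters than in any epithelial-like cluster of the medium-size tumor. Over the 14 clusters of the medium-size tumor its levels had an r of 0.92 with those of Lgals4, the highest among the 15 pairs of members, and over 8 clusters of the large-size tumor 0.76. Over the epithelial-like clusters alone this r was 0.89 (n = 8) and 0.65 (n = 6). There the closest pair of the medium-size tumor was Lgals4 and Lgals9, at 0.96. Lgals2 was highest in the Reg1/Ly6k cluster (540 CPM), followed by the Yap1/Birc2 (311 CPM), gastric pit-like (285 CPM), cycling (249 CPM), Dmbt1/Sftpd (185 CPM) and Hmga2/Cldn6 (175 CPM) clusters. Of the 13 neighbouring pairs in its order over the 14 clusters, 10 had overlapping intervals. The Inhba/Bmp2 and Krt17/Tnc clusters had 72.8 and 41.4 CPM, close to the mesothelial-like (58.7 CPM) and endothelial-like (42.5 CPM) clusters. The unnamed cluster stood above all of these at 142 CPM (105 to 188), with epithelial markers at 7922 CPM and macrophage markers at 7667 CPM. Macrophage-like clusters had 21.2 CPM (5.77 to 54.2) from 4 UMIs and 8.17 CPM from 6 UMIs, and the stromal-like cluster 6.02 CPM from 2 UMIs. The first of these intervals overlapped that of the Krt17/Tnc cluster (32.5 to 52.0). Lgals2 UMIs per UMI of the 11 epithelial markers came to 0.0205 in epithelial-like, 0.0204 in mesothelial-like, 0.0164 in macrophage-like, 0.0104 in endothelial-like and 0.00472 in stromal-like cells, and 0.0179 in the unnamed cluster. Outside the epithelial-like cells of this tumor these ratios were thus no higher than within them, and no expression is read from the Lgals2 UMIs there.

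A single cluster of the large-size tumor held most of Lgals2. The goblet-like cluster had 1528 CPM (1351 to 1722), a UMI in 58.4% of its cells (50.2% to 66.3%) and 76.9% of all Lgals2 molecules. The enterocyte-like cluster had 158 CPM (107 to 224), and the other epithelial-like clusters with any UMI had 20.0 to 49.8 CPM. The macrophage-like cluster had 10.2 CPM from 2 UMIs, a UMI in 0.787% of cells, and the stromal-like, endothelial-like and Upk3a/Sprr2f clusters had 0. A count of 0 in the stromal-like cluster allows up to 44.0 CPM at 3 counts.

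Lgals2 molecules were unevenly spread among the cells of a cluster. In the epithelial-like clusters of the medium-size tumor the 10% of cells with the most Lgals2 held 64.0% to 95.9% of its UMIs, against 31.9% to 44.5% for Lgals3. In the Reg1/Ly6k cluster the median cell had 1 Lgals2 UMI and the highest 63, and in the gastric pit-like cluster the median was 0 and the highest 91. For Lgals9 the 10% of cells with the most held 39.2% to 57.1% of its UMIs. Counting error also makes a gene of low level look uneven, and its part in these shares was not tested.

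Lgals3, the chimera galectin long used as a macrophage antigen, was highest in macrophage-like clusters of the medium-size tumor, at 2575 CPM (2460 to 2694) and 1970 CPM (1775 to 2181). The epithelial-like clusters followed closely, from the Yap1/Birc2 (1835 CPM), Inhba/Bmp2 (1724 CPM), Hmga2/Cldn6 (1580 CPM) and Krt17/Tnc (1447 CPM) clusters to the gastric pit-like (1240 CPM), cycling (1092 CPM), Dmbt1/Sftpd (918 CPM) and Reg1/Ly6k (682 CPM) clusters. The stromal-like cluster, with the second highest Lgals1, had the lowest Lgals3 at 262 CPM (210 to 323). The endothelial-like and mesothelial-like clusters had 850 and 539 CPM. A UMI of Lgals3 was found in 93.4% of epithelial-like cells at a median depth of 5986 UMIs, in 97.9% of macrophage-like cells at 3511 UMIs and in 50.7% of stromal-like cells at 4361 UMIs. Thinned to 2500 UMIs the shares were 83.1%, 94.1% and 32.8%. The stromal-like cells also held 1277 CPM of the epithelial markers, and the part of free RNA in their Lgals3 was not tested.

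Lgals3 in the large-size tumor was highest in the macrophage-like cluster (1635 CPM, 1461 to 1823) and the goblet-like cluster (1488 CPM, 1313 to 1680), whose intervals overlap. The Upk3a/Sprr2f cluster had 1294 CPM (829 to 1925), the enterocyte-like cluster 1049 CPM, and the gastric pit-like, Onecut2, cycling and Ggct/Ramp1 clusters 615, 521, 494 and 412 CPM. The mesenchymal-marker cluster thus had the lowest value of the epithelial-like clusters here, whereas that of the medium-size tumor was among the highest. Its interval in the large-size tumor (354 to 476) overlapped those of the cycling (439 to 553) and Onecut2 (430 to 625) clusters. Of the 9 neighbouring pairs in this order, 8 had overlapping intervals. Over the epithelial-like clusters Lgals1 and Lgals3 had an r of 0.80 in the medium-size tumor (n = 8) and −0.94 in the large-size tumor (n = 6), where the 4 clusters other than the enterocyte-like and goblet-like ones also had opposite orders of both genes. The Lgals3 intervals of neighbours among these 4 all overlapped, so their Lgals3 order is not resolved.

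Lgals9, the tandem-repeat galectin that binds Havcr2 among other partners, differed least between clusters of the medium-size tumor, with 3.99 times between the gastric pit-like cluster (150 CPM, 136 to 165) and the Inhba/Bmp2 cluster (37.5 CPM, 29.2 to 47.4). All but 1 of the 13 neighbouring pairs in its order had overlapping intervals. Macrophage-like clusters had 95.3 CPM (56.5 to 151) and 88.5 CPM, within the range of the epithelial-like clusters. Over the 8 epithelial-like clusters its levels had an r of 0.96 with those of Lgals4, and over all 14 clusters of 0.42. Only 43 UMIs were counted in the large-size tumor, with 13.2 to 34.1 CPM in the epithelial-like clusters that had any, and no order can be read from them.

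Lgals3bp, the secreted galectin ligand, also followed the gastric pit-like cluster, at 403 CPM (379 to 427) in the medium-size tumor and 169 CPM (125 to 222) in the large-size tumor, the highest cluster in both. In the medium-size tumor the Reg1/Ly6k (294 CPM), Hmga2/Cldn6 (242 CPM), Dmbt1/Sftpd (209 CPM) and cycling (208 CPM) clusters came next, and the Krt17/Tnc (84.0 CPM) and larger macrophage-like (74.8 CPM) clusters were lowest. Its levels had an r of 0.88 with Lgals4 over the 14 clusters and of 0.87 over 8 clusters of the large-size tumor. Of the neighbouring pairs in its order, 11 of 13 had overlapping intervals in the medium-size tumor and all 9 in the large-size tumor.

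Macrophage-like cells in the medium-size tumor were set against the epithelial-like cells. A gene was called higher or lower when its level, with 10 CPM added to both groups, differed by more than 2-fold, among genes with at least 50 UMIs in both groups together. A member with under 50 UMIs in its lower group reached this minimum through the other group alone, so counts and medians of members are given here and in the next comparisons as descriptions that support nothing. No member was called higher, where 6.49% of 10894 genes were, and 3 of 6 were called lower, Lgals2, Lgals4 and Lgals3bp, where 12.3% were. The median log2 fold of the members was −1.13 and that of all genes tested −0.29. Lgals4 was 20.1-fold lower (109 against 2197 CPM, 16.5 to 24.7) and Lgals2 21.9-fold lower (10.8 against 237 CPM, 11.9 to 45.6). Lgals3bp was 2.84-fold lower (2.25 to 3.63). The sizes for Lgals4 and Lgals2 depended on the clustering, with ratios of 0.197 and 0.194 at a resolution of 0.4, which put 301 in place of 239 cells in the macrophage-like class, against 0.0498 and 0.0458, and both were called lower there too. Lgals3 was 1.83 times as high in the macrophage-like cells (2451 against 1341 CPM, 1.75 to 1.91) and did not pass the 2-fold line, and Lgals1 was 0.548 times as high (0.514 to 0.584). Lgals9 had a ratio of 0.970 (0.769 to 1.21), an interval that holds equal levels.

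The large-size tumor gave the same directions for Lgals2, Lgals3 and Lgals4. Of 5 members with enough UMIs, Lgals3 was called higher, at 2.52 times (1635 against 650 CPM, 2.22 to 2.85), where 8.01% of 4693 genes were. Lgals2 and Lgals4 were called lower, where 24.3% were, and both reached 50 UMIs through the epithelial-like cells alone. Lgals4 was 21.9-fold lower (11.1 to 50.9) from 8 UMIs in the macrophage-like cells, and Lgals2 17.5-fold lower (4.81 to 145) from 2 UMIs. The ratio of Lgals1 was 0.860 (0.718 to 1.02). The members' median log2 fold was −0.56 beside −0.36 for all genes. Without the enterocyte-like and goblet-like clusters, 1 member in place of 2 was called lower, Lgals4, at a ratio of 0.0985, and the ratio of Lgals2 was then 0.335 without the added 10 CPM.

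Stromal-like cells in the medium-size tumor, against the epithelial-like cells, had 1 member called higher, Lgals1, at 3.32 times (6395 against 1924 CPM, 3.18 to 3.47), where 6.93% of 10792 genes were higher. Lgals2, Lgals3, Lgals4 and Lgals3bp were called lower, where 8.65% of genes were. Lgals3 was 5.12-fold lower (262 against 1341 CPM, 4.15 to 6.39), Lgals4 16.6-fold lower (12.3 to 22.8) and Lgals3bp 2.45-fold lower (1.71 to 3.63). Lgals2 had a ratio of 0.0255 (0.00308 to 0.0921) from 2 UMIs. Without the cells of the highest 5% of Scrublet doublet scores the ratio of Lgals4 was 0.0289 in place of 0.0603, that of Lgals3 was 0.135 in place of 0.195, and no Lgals2 UMI was left in the stromal-like cells. With classes taken from each cell's own markers the ratio of Lgals4 was 0.0367. The median log2 fold was −1.76 for the members and −0.13 for all genes.

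To follow the members from epithelial to mesenchymal marker content, the 2326 epithelial-like cells in the medium-size tumor were ordered by the share of mesenchymal-list UMIs among the UMIs of that list and the epithelial markers, and cut into 5 bins of equal size. The order is a range and not a set of types, and 252 and 60 cells lay within 1 percentage point of the lowest and the highest cut. Vim, a gene of the mesenchymal list, went from 33.2 to 1418 CPM from the first to the last bin, and Epcam, which was in neither list, from 1785 to 666 CPM. The Inhba/Bmp2 cluster made up 45.6% of the last bin, and the gastric pit-like cluster 40.6% of the first. Second in the last bin was the Krt17/Tnc cluster with 12.5%. That cluster as a whole had 2929 CPM of Epcam and 255 CPM of Vim, so the last bin also holds cells of an epithelial cluster.

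Lgals1 had 330, 906, 2304, 2872 and 2655 CPM from the first to the last bin. Most of the difference lay between bins 1 and 3, and bin 5 was below bin 4. Lgals4 had 4013, 3187, 2361, 1406 and 551 CPM, so it was lower in every bin than in the one before. In bin 3 the levels of both genes were close, and on either side one of them led.

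Lgals2 had 311, 294, 326, 183 and 89.3 CPM, so bins 1 to 3 were alike and bins 4 and 5 lower. Lgals9 had 131, 110, 105, 78.7 and 48.6 CPM, and Lgals3bp 306, 297, 233, 175 and 124 CPM. Lgals3 went the other way with a small difference, at 992, 1236, 1430, 1403 and 1556 CPM.

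**Figure D4:**
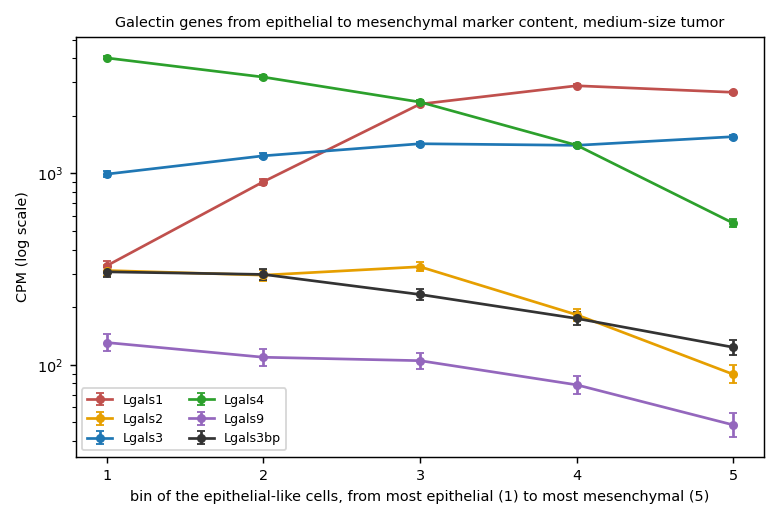
CPM of each member (y axis, log scale, with exact 95% Poisson intervals) in the 5 bins of the epithelial-like cells in the medium-size tumor, ordered from most epithelial to most mesenchymal marker content (x axis). Lgals1 goes from 330 to 2655 CPM and Lgals4 from 4013 to 551 CPM, and their lines meet in bin 3.

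Between the last and the first bin Lgals1 was 8.05 times as high (7.54 to 8.60) and was the only member called higher, where 4.73% of 8533 genes were. Lgals4 (7.29-fold lower, 6.95 to 7.64), Lgals2 (3.48-fold), Lgals9 (2.69-fold) and Lgals3bp (2.48-fold) were called lower, where 4.07% of genes were. Lgals3 was 1.57 times as high. The members' median log2 fold was −1.25 beside 0.12 for all genes. Without the Inhba/Bmp2 cluster Lgals1 was 9.10 times as high and the ratio of Lgals4 was 0.213 in place of 0.137, while with 10% of the cells in each bin it was 0.0789. With cells ordered by the first principal component instead, made without galectin genes, Lgals1 was 26.4 times as high and Lgals3 2.25 times, so that 2 members were called higher. Spearman's rho of this component with the mesenchymal share over cells was 0.60.

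In epithelial-like cells 5 of the 6 members had lower levels in the large-size than in the medium-size tumor, while the direction of Lgals2 depended on how cells were weighted. With 1 tumor of each size, size cannot be told apart from the mouse or the library, and depth per cell differed as well. Lgals1 was 2.35-fold lower (820 against 1924 CPM, 2.23 to 2.47), Lgals3 2.06-fold lower (650 against 1341 CPM, 1.95 to 2.19), Lgals4 2.47-fold lower (891 against 2197 CPM, 2.35 to 2.59), Lgals9 4.77-fold lower (19.4 against 92.6 CPM, 3.46 to 6.77) and Lgals3bp 2.55-fold lower (86.8 against 221 CPM, 2.18 to 2.99). Lgals2 had a ratio of 0.751 (178 against 237 CPM, 0.672 to 0.838). So 5 of 6 members were called lower and none higher, where 6.35% and 2.97% of the 10881 genes were. Among genes with at least 1000 UMIs, a level that every member reaches, 15.5% were lower.

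Epithelial markers moved along with the members. Of the 11, 6 were called lower (Krt8, Krt18, Krt7, Cldn7, Spint2 and Muc1), with a median log2 fold of −1.28 beside −1.24 for the members and −0.12 for all genes. Ribosomal protein genes took 23.3% of the UMIs of the epithelial-like cells in the medium-size tumor and 26.8% in the large-size tumor. What part these shifts had in the members' levels was not tested. Lgals2 did not keep its direction, with a ratio of 1.04 when the CPM of each cell were averaged and of 1.12 when cells of both tumors were thinned to 500 UMIs. Under both of these, 3 members in place of 5 were called lower. With TMM scaling, which raised every ratio by 0.17 on the log2 scale, 4 were called lower and Lgals3 was at 0.543. Without the enterocyte-like and goblet-like clusters the ratio of Lgals2 was 0.128, and that of Lgals4 was 0.188 in place of 0.405. Those of Lgals1, Lgals3, Lgals9 and Lgals3bp were then 0.522, 0.378, 0.177 and 0.365, so that 5 members were called lower, with Lgals2 in place of Lgals1.

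Cell groups found in both tumors were then set side by side. In gastric pit-like cells the members with at least 50 UMIs in each tumor, Lgals1, Lgals3, Lgals4 and Lgals3bp, were called lower in the large-size tumor, where 14.5% of genes were lower and 4.74% higher. Lgals2 and Lgals9, with 9 and 4 UMIs there, reached the minimum through the medium-size tumor alone. In cycling cells Lgals1, Lgals3 and Lgals4, with at least 50 UMIs in each tumor, were called lower as well, where 11.1% of genes were lower and 3.54% higher, while Lgals2, Lgals9 and Lgals3bp had 12, 10 and 36 UMIs in the large-size tumor. Lgals2 stood at 285 against 29.7 CPM in gastric pit-like cells (ratio 0.104, 0.0476 to 0.199) and 249 against 20.0 CPM in cycling cells (ratio 0.0802, 0.0413 to 0.141). Lgals4 had a ratio of 0.251 (0.225 to 0.280) in gastric pit-like and 0.121 (0.103 to 0.141) in cycling cells, where its interval overlapped that of Lgals2. Lgals1 stood at 0.359 and 0.435.

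Of the 2 members with at least 50 UMIs in the mesenchymal-marker cells of each tumor, Lgals3 was called lower in the large-size tumor and Lgals1 was not, where 17.1% of genes were lower and 6.41% higher. Lgals4, Lgals9 and Lgals3bp were past the 2-fold line on 25, 6 and 18 UMIs in the large-size tumor. Lgals3 had a ratio of 0.239 (0.205 to 0.277) in these cells and Lgals1 of 0.675 (0.623 to 0.731). In macrophage-like cells neither Lgals1 nor Lgals3 was called, where 11.2% of genes were lower and 5.52% higher, and Lgals4 and Lgals9 were past the 2-fold line, lower, on 8 and 4 UMIs in the large-size tumor against 101 and 83. Of 5 epithelial markers tested there, 3 were called lower as well (Krt8, Krt18 and Krt7), and the 11 summed to 244 against 661 CPM, while Lgals4 had a ratio of 0.371, or 0.0936 at a resolution of 0.4. Their part in the Lgals4 difference was not tested. Lgals9 had a ratio of 0.226, or 0.440 with classes from each cell's own markers. Lgals3 had a ratio of 0.667 (0.592 to 0.750). When cells were thinned to 500 UMIs none of the members was called in these cells, as Lgals4 and Lgals9 fell below the 50 UMIs required. In stromal-like cells neither of the 2 members with enough UMIs was called, where 18.8% of genes were lower and 8.79% higher, with Lgals1 at 0.759 (0.674 to 0.853). The 11 endothelial-like cells of the large-size tumor held 7 UMIs of Lgals1, 4 of Lgals3 and 0 of Lgals4, against 248, 200 and 310 in the 38 of the medium-size tumor, so these genes reached 50 UMIs through the medium-size tumor alone and no count is read from them, where 24.6% of genes were lower and 11.2% higher. Lgals1 had a ratio of 0.415 (0.165 to 0.869) and Lgals3 of 0.294 (0.0794 to 0.766). The epithelial markers summed to 250 CPM in these cells, with 9 of 11 at 0, against 4078 CPM in the medium-size tumor, and their part in the difference was not tested.

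**Figure D5:**
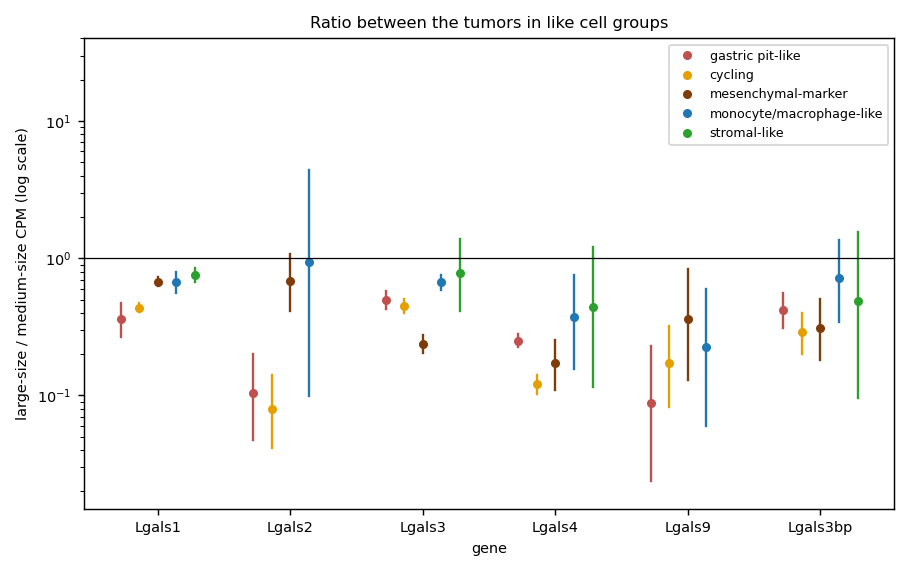
Level in the large-size tumor over that in the medium-size tumor (y axis, log scale, with exact 95% binomial intervals) for each member (x axis) in 5 cell groups found in both, marked by colour. No point lies above 1, and genes with 0 UMIs in the large-size tumor or at most 3 in the medium-size tumor are not drawn.

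Other galectin genes were low over all cells. Of 7 listed, 5 have rows, and the highest were Lgals8 (19.0 CPM in the medium-size tumor, 17.4 CPM in the large-size tumor) and Lgalsl (13.9 and 19.7 CPM). Lgals7 and Lgals12 had 3.69 and 1.13 CPM in the medium-size tumor. In its mesothelial-like cells, though, Lgals7 stood at 92.0 CPM (64.4 to 127), with 36 of its 75 UMIs, beside 51.1 CPM of Lgals9 (31.2 to 78.9). Grifin, a galectin-like gene of the lens, had 0 UMIs in both tumors, which at 3 counts allows up to 0.148 and 1.34 CPM. None of these genes was called in any of the 6 comparisons, in which at most 2 of the 5 had enough UMIs.

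Genes for known galectin ligands and receptors were counted alongside, and all 20 listed have rows. Fn1, fibronectin, was the highest at 1140 CPM in the medium-size tumor and 1164 CPM in the large-size tumor, with 3209 and 4691 CPM in macrophage-like cells. The next was Cd44, a hyaluronan receptor, at 549 CPM in the medium-size tumor, and Lamp1, a lysosomal glycoprotein, at 310 CPM in the large-size tumor. Havcr2, a receptor of Lgals9 on immune cells, had 17.3 CPM in macrophage-like cells in the medium-size tumor (16 UMIs) and 25.4 CPM in the large-size tumor (5 UMIs). Spn and Lag3 had 0 UMIs in the large-size tumor, with the same limit of 1.34 CPM. In the macrophage-like cells in the medium-size tumor 5 of 16 tested were called higher (Ptprc, Itgam, Nrp1, Lamp1 and Fn1), where 6.49% of all genes were, and those called lower, where 12.3% were, included Muc1, Tfrc, Egfr and Cdh13. Muc1, Tfrc, Egfr and Cdh13 had 16, 6, 0 and 11 UMIs in these cells and reached the required minimum through the epithelial-like cells alone. Itgam had 36 UMIs in the epithelial-like cells and reached it through the macrophage-like cells alone. The calls of these genes are therefore descriptions that support nothing. Between the last and first bins 2 of 13 were called higher (Itgb1 and Fn1), against 4.73% of all genes, and 2 lower (Muc1 and Ceacam1), against 4.07%. Fn1 and Muc1 belong to the lists that made the order. Between the tumors' epithelial-like cells 0 of 16 were called higher, against 2.97% of all genes, and those called lower, against 6.35%, included Muc1 and Cdh13.

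Enzymes that build or cap galectin ligands were measured as well. Of the 10 genes of N-glycan branching and galactose addition, Mgat2 (107 CPM) and Mgat4a (71.4 CPM) were highest in the medium-size tumor, and B3gnt2 had 20 UMIs there and 0 in the large-size tumor. In that tumor Mgat4a had 105 CPM and Mgat2 95.6 CPM. Between the tumors' epithelial-like cells none of the 9 tested was called, where 2.97% of all genes were higher and 6.35% lower. Against the epithelial-like cells, macrophage-like cells had B4galt5, a galactosyltransferase, called higher and Mgat3, Mgat4b and Fut8 lower of 9 tested in the medium-size tumor, where 6.49% and 12.3% of genes were. Mgat3, Mgat4b and Fut8 had 2, 19 and 13 UMIs in these macrophage-like cells. They reached the required minimum of UMIs through the epithelial-like cells alone, so their lower calls are descriptions that support nothing. In the macrophage-like cells of the large-size tumor Mgat2 and B4galt5 were higher and Mgat4b and Fut8 lower of 7 tested, where 8.01% and 24.3% of genes were. Mgat4b had 3 and Fut8 0 UMIs in them, and the same limit holds for these lower calls. Of the 7 capping and core 2 genes, Gcnt3, which makes core branches of mucin O-glycans, was highest in the medium-size tumor at 112 CPM, followed by St3gal4 at 64.9 CPM. St3gal6 (62.1 CPM) and St6gal1 (51.4 CPM) led in the large-size tumor. Gcnt3 was called lower in 5 of the 6 comparisons, all but that between the macrophage-like cells, where it had too few UMIs, and in those 5 the share of genes called lower was 4.07% to 24.3%. St3gal6 was lower in 3 of them, the macrophage-like cells of each tumor and the last bin, St3gal4 was lower between the tumors' epithelial-like cells, and Gcnt1 was lower in the stromal-like cells and higher in the last bin. In the macrophage-like cells of the medium-size and the large-size tumor Gcnt3 had 8 and 1 UMIs and St3gal6 12 and 2. The stromal-like cells in the medium-size tumor held 3 UMIs of Gcnt3 and 1 of Gcnt1. There these genes reached the required minimum of UMIs through the epithelial-like cells alone, so these lower calls are descriptions that support nothing.

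Genes whose log2(CPM + 10) over the 14 clusters of the medium-size tumor came closest to each member were sought among 2796 genes with at least 1000 UMIs, and their r over 8 clusters of the large-size tumor is given second. For Lgals4 they were Gpx2 (r 0.98 and 0.81), a glutathione peroxidase of gut epithelium, Degs2 (0.96 and 0.97) and Gcnt3 (0.95 and 0.74). For Lgals2 they were Mgst2 (0.94 and 0.73), Suclg2 (0.94 and 0.56) and Hadh (0.93 and 0.52), the last a mitochondrial enzyme of fatty acid oxidation. For Lgals1 they were Tuba1a (0.86 and 0.98), an alpha tubulin, Igfbp4 (0.83 and 0.87) and Cldnd1 (0.81 and −0.17). For Lgals3 they were Areg (0.92 and 0.88), a ligand of the EGF receptor, Plin2 (0.86 and 0.77) and Arpc2 (0.86 and 0.15). For Lgals3bp they were Gm3336 (0.96 and 0.77), Golm1 (0.92 and 0.72) and Eps8 (0.92 and 0.68), and for Lgals9 Ndufb5 (0.81 and 0.77), Rpl37a (0.75 and 0.60) and Sptssa (0.71 and 0.90). The pattern of Cldnd1 and that of Arpc2 in the medium-size tumor were not seen in the large-size tumor.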

How the data were processed

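Per the labels, the libraries of the 2 tumors used version 2 of the 10x Genomics 3′ kit. The authors aligned the reads and tallied UMI counts of each gene in each cell with Cell Ranger, on the mm10 build that the submitters' processing notes name. The deposited counts are raw whole numbers, 20301669 UMIs in the medium-size and 2239012 UMIs in the large-size tumor. The version and the way cells were told from empty droplets are not given in the sources used here. The 13 mitochondrial genes hold no UMI in either table. Each table pools 4 technical replicates, so no test was made.

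The members, marker lists and gene lists were chosen with earlier results of these data known. All barcodes were kept. Each tumor was clustered with Seurat 5.3.0 (R 4.3.3), using 2000 variable genes without any Lgals gene, 10 principal components and a resolution of 0.8. A cluster took a class with at least 3 of its markers, each in 10% of cells and at 25% of the highest cluster's level, unless another class passed 67% of its own markers, limits set after values were seen. Scrublet (scanpy 1.11.5) called 0 and 9 doublets, so no cell was removed and doublets remain possible. UMIs were summed over cells and given as CPM. A count of 0 carries a limit of 3 counts, and intervals are at the 95% level. A gene was called past 2-fold with 10 CPM added to both sums, among genes with at least 50 UMIs. The counting steps were tested on simulated data. TMM factors came from edgeR 4.0.16. Named genes were all 6 members, the 2 highest of each further list and those at 0, and the 3 genes most correlated with each member, with members called in comparisons also named. Alternatives were another added value, no minimum, cell averages, thinning, other clusterings and classes, and another order of cells. An allele of the mice and a gene of the ligand and receptor list are not reported here.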

Additional observations from a re-analysis of the deposited data

How the results depend on the processing

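No paired analysis was possible because the technical replicates that share numbers are pooled in 1 table per tumor and no column carries a replicate, and leaving out 1 replicate at a time was not possible for the same reason. Of the counts of members called, 101 stayed within 1.5 times the value given under an alternative and 5 did not. Members lower in the macrophage-like cells of the large-size tumor went from 2 to 1 without the enterocyte-like and goblet-like clusters. Members lower in the epithelial-like cells of the large-size tumor went from 5 to 3 with the mean of each cell's CPM and from 5 to 3 with thinning to 500 UMIs, where the Lgals2 ratio also turned from 0.751 to 1.04 and 1.12. Members lower in its macrophage-like cells went from 2 to 0 with thinning, by the minimum of 50 UMIs, and members higher in the last bin of the mesenchymal order from 1 to 2 along the first principal component, where the cause was not tested. The alternatives without cluster 8 (Inhba/Bmp2), without the enterocyte-like and goblet-like clusters, and without the clusters with 3 epithelial markers were added after seeing the data. TMM scaling moved the ratios between the tumors' epithelial-like cells up by 0.17 on the log2 scale and left 4 of the 5 lower members called, with Lgals3 at a ratio of 0.543. At a resolution of 0.4 no stromal-like cluster was named in the medium-size tumor, so that comparison has no value there.

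Counts over all genes depended more on the settings. With 1 CPM added, genes lower in macrophage-like than epithelial-like cells in the medium-size tumor went from 1343 to 3289. In stromal-like cells, higher genes went from 748 to 1255 and lower from 933 to 2531. Between the tumors' epithelial-like cells they went from 323 to 656 and from 691 to 2043, and between the last and first bins from 404 to 804 and from 347 to 552. With no minimum, the macrophage-like comparison of the large-size tumor went from 376 to 1003 and from 1139 to 1812, and that between the tumors' macrophage-like cells from 148 to 437 and from 299 to 946. At a resolution of 0.4 the lower genes were 816 and 457 in place of 1343 (medium-size tumor) and 299 (between tumors). Thinning left 88 higher and 56 lower between macrophage-like cells. The first principal component gave 616 and 715 between those bins, and leaving out cluster 8 gave 253 higher. Depth limits Lgals9, Lgals3bp and Lgals2 in the large-size tumor, at 43, 185 and 350 UMIs.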
